A study of Homo sapiens with 6 samples.

Results

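The 8 genes described here encode negative feedback proteins and transcription factors that are switched on by ERK signalling: the Sprouty genes SPRY1, SPRY2 and SPRY4, the SPRED genes SPRED1 and SPRED2, and the ETS family genes ETV1, ETV4 and ETV5. They were chosen by name, with earlier results of these data known. All 29 probe sets whose platform annotation gives 1 of these symbols and no other were taken, of 49293 that are not controls. By gene, they are 8 of 18132 with such a probe set. The cells were ARPE-19, a spontaneously immortalised human line from the retinal pigment epithelium, the layer that supports the photoreceptors. In 1 group of 3 arrays (3 h), cells were exposed for 3 h to glucose oxidase at 10 mU/ml, an enzyme that releases hydrogen peroxide as it oxidises glucose. In the other group of 3 arrays (0 h), no enzyme was added. According to the protocol both groups carried a GFP plasmid, introduced 48 h before the exposure, and the design text names the 0 h cells as the control. The sample descriptions instead give a GFP construct with alpha satellite for the 3 h arrays and GFP alone for the 0 h arrays, so the treatment and the transfected construct cannot be told apart. The labels do not say whether replicates were separate cultures, and p-values therefore measure only the spread between these samples, which may be technical.

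When a growth factor receptor activates RAS, the kinases RAF, MEK and ERK are switched on in turn, and ERK then drives transcription of its own inhibitors. Sprouty proteins restrain signalling between receptor and RAF. SPRED proteins bring the RAS-inactivating protein neurofibromin to the membrane. ETV1, ETV4 and ETV5 form the PEA3 group of ETS transcription factors, whose genes are repressed by Capicua until ERK relieves that repression. Messenger RNA of several of these genes is commonly used as a readout of ERK output.

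Values are log2 signal as deposited, on 6 arrays with medians of 5.30 to 5.34, and changes are 3 h minus 0 h on that log2 scale. Over all probe sets that are not controls, arrays correlated at 0.996 to 0.997 among 3 h arrays, 0.997 among 0 h arrays and 0.987 to 0.990 across. All 24 probe sets for the poly-A spike transcripts and 17 of 18 for the hybridization spikes were lower on every 3 h array than on any 0 h array. Median changes were -0.60 for the poly-A spikes and -0.31 for the hybridization spikes. For actin, the 5′ control probe set minus the 3′ one gave a log2 value of -1.20 ± 0.06 at 3 h and -2.06 ± 0.07 at 0 h (SD, n = 3 each, two-sided exact permutation p = 0.1, the smallest that 3 against 3 arrays can give). The part of these control differences in the results was not tested. In bulk samples such as these, fewer cells of a type and less RNA per cell cannot be told apart. Of 14 pigment epithelium markers with a probe set, 4 lay under the intensity floor used here (log2 4.64, the 40th percentile of probe set means), among them RPE65 and RLBP1, while 5 rose (KRT8, KRT18, OTX2, MITF and TJP1) and 1 fell (SERPINF1, with a change of -0.40, the largest in size of the 14). The mean log2 signal of those 14 was 6.58 to 6.65 at 3 h and 6.49 to 6.50 at 0 h. Of 8 blood and endothelial markers 3 lay under the floor, and CD68 was the brightest, at 8.20 at 3 h and 8.25 at 0 h. Of those tested, 0 were called by limma (adjusted p under 0.05), with VWF and CD3E at adjusted p of 0.0821 and 0.0690. The mean log2 signal of the 8 was 4.89 to 4.94 at 3 h and 4.81 to 4.91 at 0 h. That of 7 photoreceptor and neuronal markers, 2 of them under the floor, was 5.21 to 5.33 at 3 h and 5.35 to 5.37 at 0 h, and 2 fell: PDE6B (change -0.36, adjusted p = 0.000869) and SYT1 (change -0.22, adjusted p = 0.0151). The part of any other cell type in the results was not tested.

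Stretches of promoter sequence are shown for SPRED2, SPRED1 and ETV1. The SPRED genes were taken because their brightest probe sets moved in opposite directions, though not all SPRED1 probe sets fell. ETV1 was taken because it alone of the 6 members in the RefSeq promoter table holds the Capicua letters. That table (GRCh38.p14) gives 300 bases around each annotated transcript start. Each stretch is the 250 bases before the most upstream start of its gene, printed 5′ to 3′ on the strand of the gene. Both strands were searched for the Capicua letters TGAATGAA, TGAATGGA, TCAATGAA or TCAATGGA and for the ETS letters CCGGAAG, and capitals mark a match.
SPRED2, chr2:65432600-65432849, minus strand: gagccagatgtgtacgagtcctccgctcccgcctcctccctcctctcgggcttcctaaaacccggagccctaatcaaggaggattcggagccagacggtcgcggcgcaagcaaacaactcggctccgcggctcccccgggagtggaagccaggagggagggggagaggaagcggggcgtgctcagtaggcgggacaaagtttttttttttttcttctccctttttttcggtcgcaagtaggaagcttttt
SPRED1, chr15:38252586-38252835, plus strand: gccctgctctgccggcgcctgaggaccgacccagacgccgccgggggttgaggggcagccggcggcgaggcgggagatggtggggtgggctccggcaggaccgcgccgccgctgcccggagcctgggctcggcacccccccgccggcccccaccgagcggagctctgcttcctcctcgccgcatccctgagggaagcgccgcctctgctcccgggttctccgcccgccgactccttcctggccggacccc
ETV1, chr7:13991426-13991675, minus strand: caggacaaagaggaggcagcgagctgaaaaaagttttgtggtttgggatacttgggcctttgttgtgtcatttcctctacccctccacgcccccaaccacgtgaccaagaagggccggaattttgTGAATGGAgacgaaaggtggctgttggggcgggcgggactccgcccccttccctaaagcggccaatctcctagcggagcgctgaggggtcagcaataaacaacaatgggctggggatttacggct
The match in ETV1 is TGAATGGA, which begins 125 bases before the transcript start. Capicua letters are found in 3.75% of 34943 promoter windows and in 1 of the 15 windows of the members. ETS letters are found in 10.2% of all windows and in 1 of those 15, a downstream start of SPRY1. A match describes these letters and no binding. ETV4 and ETV5 are the members without an entry.

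Of the 8 genes, each represented by its brightest probe set, SPRED2, ETV5 and SPRY2 rose, SPRED1 fell, and SPRY1, SPRY4, ETV1 and ETV4 did not pass the test (limma, adjusted p under 0.05 over 12221 genes above the floor). Over all genes tested 51.3% were called, 20.6% higher and 30.8% lower, so 4 of 8 members called is near the background. The groups did not overlap for the same 4 members, and for 60.5% of all genes tested. The median change of the members was 0.04, beside -0.04 over all genes tested.

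**Figure D1:**
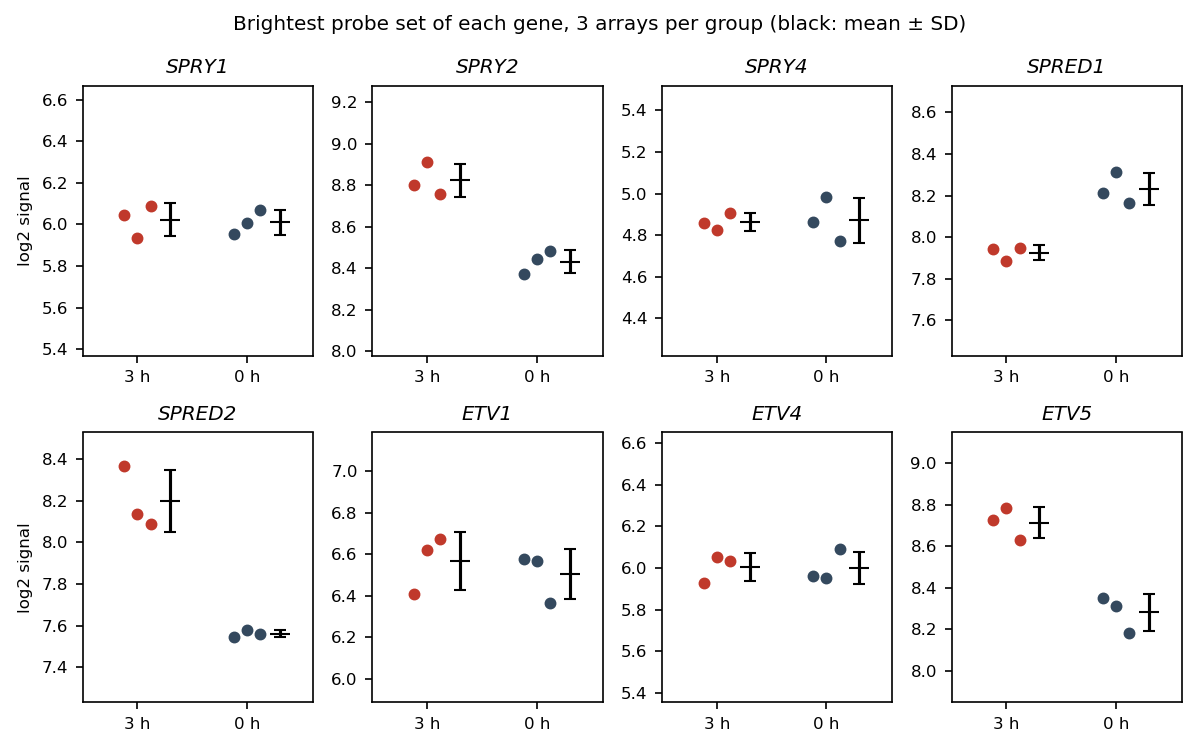
Log2 signal (vertical axis, each panel spanning the same log2 range) of the brightest probe set of each gene on every array, with 3 h arrays in red on the left and 0 h arrays in dark blue on the right; black marks give the mean ± SD (n = 3). The groups are apart for SPRY2, SPRED1, SPRED2 and ETV5 and overlap for SPRY1, SPRY4, ETV1 and ETV4.

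Among the Sprouty genes, only SPRY2 was called in this fit. SPRY2, which restrains signalling from FGF receptors, had log2 signals of 8.80, 8.91 and 8.76 at 3 h, against 8.37, 8.44 and 8.48 at 0 h. Every 3 h array lay above every 0 h array. It was 1.31-fold higher, a change of 0.39 (SE 0.06, n = 3 each, adjusted p = 0.00108, limma), and it has 1 probe set. SPRY1, which restrains FGF and GDNF receptor signalling in development, had 6.04, 5.94 and 6.09 at 3 h, against 5.95, 6.01 and 6.07 at 0 h. The groups overlapped, with a change of 0.01 (95% interval -0.13 to 0.16, adjusted p = 0.878). Its other 2 probe sets hold identical values on all 6 arrays, so they are 1 measurement, and lay under the floor with a change of -0.13. SPRY4, another inhibitor of receptor signalling, was dim: its brightest probe set stood at 4.86, 4.82 and 4.91 at 3 h, against 4.86, 4.99 and 4.77 at 0 h. The change was -0.01 (95% interval -0.16 to 0.15, adjusted p = 0.931), in groups that overlapped, and its other 2 probe sets were under the floor at 0.17 and 0.16. SPRY3, a family member outside the set, was also under the floor, at 4.51 ± 0.04 at 3 h and 4.47 ± 0.03 at 0 h (SD, n = 3 each). The difference between SPRY2 and SPRY1 on the same array was 0.38 higher at 3 h, with groups that did not overlap (two-sided exact permutation p = 0.1, the smallest possible). That difference is 1 of 3 between pairs of members, chosen after their values were seen, and all 3 had this p, which is also 0.1 after adjustment over them.

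By their brightest probe sets, the SPRED genes moved in opposite directions. SPRED2, whose product recruits neurofibromin to the membrane and so lowers active RAS, had 8.37, 8.14 and 8.09 at 3 h, against 7.54, 7.58 and 7.56 at 0 h. The groups were far apart, and the 3 h arrays spread more than the 0 h arrays (SD 0.15 and 0.02). It was 1.56-fold higher, a change of 0.64 (SE 0.08, adjusted p = 0.000286, limma). By brightest probe set this was the largest change of the 8 genes and the 786th largest in size over all genes tested. Averaged over probe sets, ETV5 changed more (0.55, against 0.48 for SPRED2), as it did without probe sets marked as shared (0.86 against 0.64). A second SPRED2 probe set, 11717655_a_at, had 5.81, 5.66 and 5.74 at 3 h, against 4.99, 5.19 and 5.03 at 0 h, a change of 0.67 (adjusted p = 0.000232, limma over probe sets). The third lay under the floor at 0.14, its groups apart too. SPRED1, the paralogue mutated in Legius syndrome, had 7.94, 7.88 and 7.95 at 3 h, against 8.21, 8.32 and 8.16 at 0 h. All 3 h arrays lay below all 0 h arrays, a change of -0.31 (SE 0.06, adjusted p = 0.00295, limma), with SPRED1 1.24-fold lower at 3 h. The difference between SPRED2 and SPRED1 on the same array was 0.94 higher at 3 h, and the groups did not overlap (exact permutation p = 0.1). That outcome was fixed by the separate groups of both genes and adds no evidence to their changes. SPRED3, the third family member and none of the 8, differed by 0.19 (adjusted p = 0.160), or 0.06 without replicate 1 at 3 h. NF1, which encodes the neurofibromin that SPRED proteins recruit, stood at 7.47 ± 0.10 at 3 h and 7.48 ± 0.08 at 0 h (SD, n = 3 each, adjusted p = 0.887).

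The fall of SPRED1 was not shared by all of its probe sets. Of the 5, 4 were above the floor and 2 of these fell. Probe set 11734827_at had 6.06, 6.25 and 6.35 at 3 h, against 6.77, 6.76 and 6.69 at 0 h, a change of -0.52 (adjusted p = 0.00113, limma over probe sets). Probe set 11734825_at had 7.29, 7.50 and 7.53 at 3 h, against 7.52, 7.52 and 7.39 at 0 h, in groups that overlapped (change -0.04, 95% interval -0.22 to 0.15, adjusted p = 0.726). Probe set 11734828_at also overlapped between groups, at 0.18 (adjusted p = 0.242), and was called at 0.31 without replicate 1 at 3 h. The dimmest, 11734824_at, was under the floor on average, with 3.95, 3.94 and 4.16 at 3 h against 5.03, 5.28 and 4.82 at 0 h; its change of -1.03 was the largest in size of all 29 probe sets. The brightest probe set carries the platform's mark for probes shared with other transcripts. With such probe sets left out, SPRED1 is represented by 11734825_at and was no longer called. Averaged over all 5, its change was -0.34 (adjusted p = 0.00405, limma).

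Among the PEA3 genes, ETV5 rose while ETV4 and ETV1 were not called by their brightest probe sets. ETV5, a transcription factor that acts downstream of FGF receptors, had 8.73, 8.78 and 8.63 at 3 h, against 8.35, 8.31 and 8.18 at 0 h. The groups did not overlap, and the change was 0.43 (1.35-fold, SE 0.07, adjusted p = 0.000956, limma). All 4 ETV5 probe sets were above the floor, and 3 rose. Larger changes were measured by 11720351_a_at, with 7.84, 8.12 and 8.07 at 3 h against 7.13, 7.29 and 7.04 at 0 h (change 0.86, 1.81-fold), and by 11748612_a_at, with 6.69, 6.87 and 6.85 at 3 h against 5.84, 6.05 and 6.08 at 0 h (change 0.81, 1.76-fold). Their adjusted p values were 0.000235 and 0.000181 in limma over probe sets. The fourth, 11720352_at, had 7.11, 7.41 and 7.04 at 3 h, against 7.08, 7.01 and 7.13 at 0 h, in groups that overlapped (change 0.11, 95% interval -0.11 to 0.34, adjusted p = 0.354). The size given for ETV5 therefore depends on the probe set: without those marked as shared it is 0.86, and averaged over all 4 it is 0.55.

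ETV4, which is often raised in tumours with active ERK, had 5.93, 6.05 and 6.03 at 3 h, against 5.96, 5.95 and 6.09 at 0 h. The values of both groups ran together, with a change of 0.00 (95% interval -0.14 to 0.15, adjusted p = 0.980). Its second probe set stood at 0.17 (adjusted p = 0.129). ETV1, the PEA3 factor on which gastrointestinal stromal tumours depend, had 6.41, 6.62 and 6.67 at 3 h, against 6.58, 6.57 and 6.37 at 0 h, with a change of 0.06 in overlapping groups (95% interval -0.14 to 0.26, adjusted p = 0.573). Its probe set 11733180_a_at, the only other of 8 above the floor, had 5.29, 5.61 and 5.69 at 3 h, against 5.97, 5.91 and 5.88 at 0 h. These groups did not overlap, and the change was -0.39 (SE 0.10, adjusted p = 0.0132, limma over probe sets). Since the brightest ETV1 probe set is marked as shared, leaving such probe sets out makes 11733180_a_at the representative, and ETV1 is then called lower. The 6 probe sets under the floor had changes of -0.65 to 0.30, with 5 above 0. The difference between ETV5 and ETV1 on the same array was 0.37 higher at 3 h and did not overlap between groups (exact permutation p = 0.1). This pair too was chosen after its values were seen, and the groups were already apart for ETV5 alone.

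Counted by probe set, 12 of the 29 lay under the floor and 17 were tested, of which 9 were called: 6 higher, of SPRY2, SPRED2 and ETV5, and 3 lower, of SPRED1 and ETV1. Over all 29576 probe sets tested, 51.4% were called, 25.6% higher and 25.8% lower. In this fit all called probe sets of any 1 member went the same way, with only 1 called for SPRY2 and for ETV1. Without replicate 1 at 3 h, higher calls numbered 7 and included SPRED1 probe set 11734828_at.

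**Figure D2:**
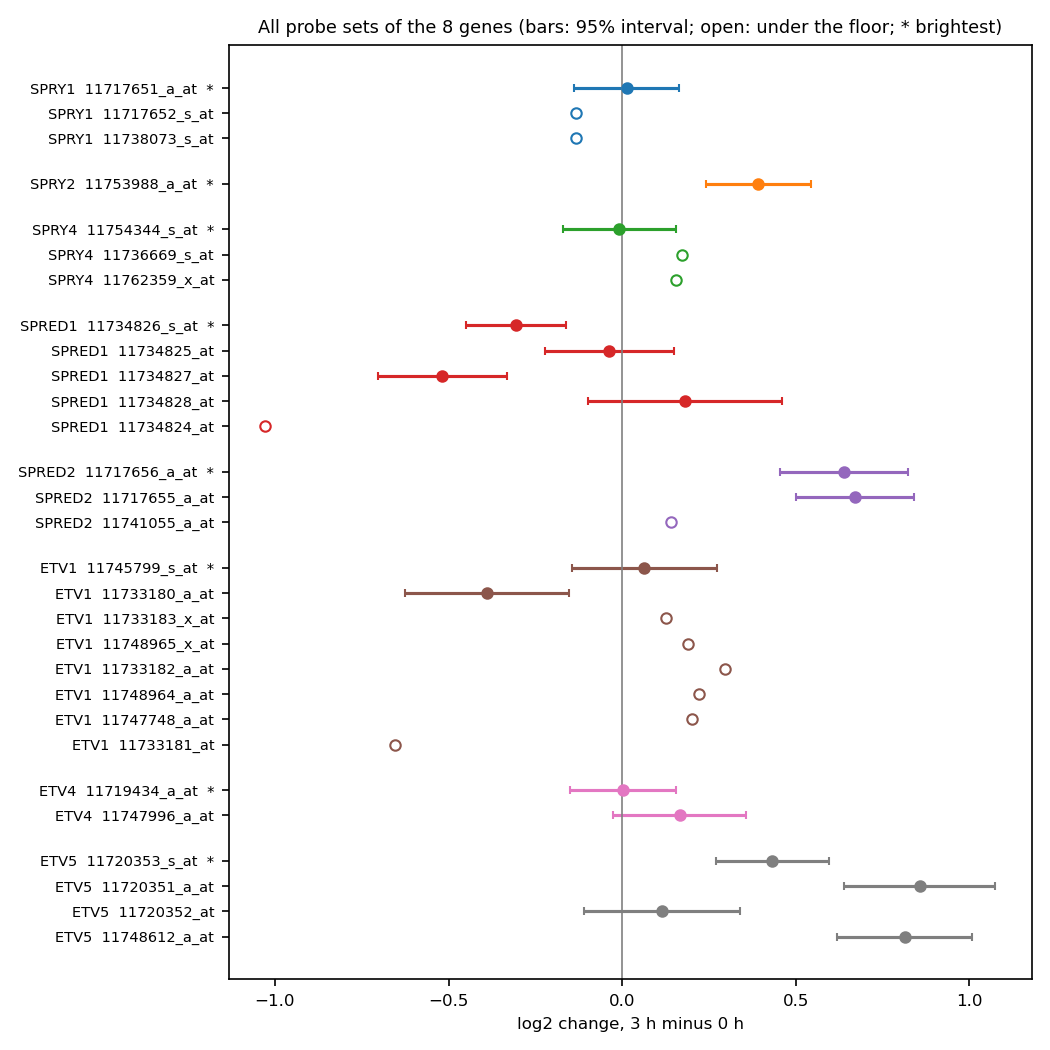
Log2 change (3 h minus 0 h) of all 29 probe sets of the 8 genes, ordered within a gene by mean signal; filled points carry 95% intervals from the limma fit over probe sets, open points lay under the floor and were not tested, and an asterisk marks the brightest. Both tested SPRED2 probe sets and all 4 for ETV5 lie right of 0, 3 of the 4 with intervals that do not reach it, while those of SPRED1 run from -1.03 to 0.18.

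Whether probe sets of a gene changed by different amounts was tested as the change, on the same arrays, of the brightest minus the dimmest probe set above the floor. Over 7110 genes with 2 or more such probe sets, 33.4% passed (limma, adjusted p under 0.05), and the median size of the difference was 0.21. Of the 5 members that could be tested, 3 passed. For ETV1 the signed difference was 0.45 (SE 0.08, adjusted p = 0.00555), the brightest having changed by 0.06 and the dimmest by -0.39. For SPRED1 it was -0.49 (SE 0.12, adjusted p = 0.0181), from changes of -0.31 and 0.18. For ETV5 it was -0.38 (SE 0.12, adjusted p = 0.0399), from changes of 0.43 and 0.81. The call of SPRED1 ended without replicate 2 (-0.42) or 3 (-0.41) at 3 h and without replicate 1 (-0.46) or 3 (-0.47) at 0 h. That of ETV5 ended without replicate 2 (-0.38) or 3 (-0.32) at 3 h and without replicate 1 (-0.27) or 2 (-0.40) at 0 h. The floor decides which probe set is the dimmest. With no floor the direction for SPRED1 turned, to a called 0.72 (adjusted p = 0.00540, limma), and SPRED2 was called at 0.50 (adjusted p = 0.0129), while the call of ETV5 ended (adjusted p = 0.0705). With a floor at the 60th percentile SPRED1 also turned, to 0.21, and was not called (adjusted p = 0.0865). At the 40th percentile, the brightest and dimmest tested probe sets of SPRED2 differed by -0.03 in their change (95% interval -0.24 to 0.17, adjusted p = 0.822), and those of ETV4 by -0.16 (adjusted p = 0.311). The 5′ to 3′ differences of actin and, less so, GAPDH, given above, changed between the groups as well. Their part in the differences between probe sets was not tested.

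**Figure D3:**
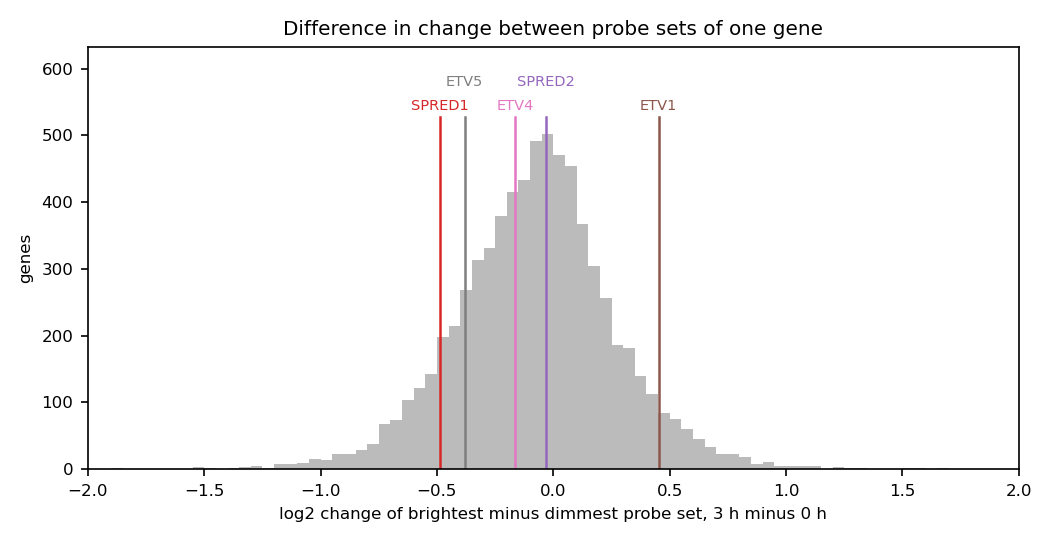
Histogram over genes of the log2 change (3 h minus 0 h) of the brightest minus the dimmest tested probe set of a gene, with lines at the 5 members that have 2 or more tested probe sets. SPRED1 (-0.49), ETV5 (-0.38) and ETV1 (0.45) lie outside the median size of 0.21, and SPRED2 (-0.03) lies near 0.

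The pathway above these genes was taken as a list of 30 receptors, adaptors and kinases, of which 24 have a probe set with 1 symbol and 22 were tested. Of these 8 rose, 2 fell and 12 did not pass (45.5% called, beside 51.3% of all genes tested, 20.6% higher and 30.8% lower), with a median change of 0.10, beside -0.04 over all genes. EGFR, the EGF receptor, rose from its brightest probe set by 1.07 (adjusted p = 9.56e-05), with 8.44 ± 0.21 at 3 h and 7.37 ± 0.04 at 0 h (SD, n = 3 each), or by 0.54 averaged over its probe sets. The FGF receptor gene FGFR1 rose by 0.67, the PDGF receptor gene PDGFRB by 0.59 and the adaptor gene SHC1 by 0.37. Averaged over probe sets, PDGFRB stood at 0.25 and SHC1 at 0.71. The 2 that fell, likewise known from their values and not by the naming rule, were SOS2, an exchange factor that loads RAS with GTP, which fell by 0.52, and SHOC2, a scaffold for RAF activation, which fell by 0.25, while the mean of its probe sets stood at -0.04 without a call.

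Of 15 tested partners and other brakes of the pathway, 3 rose, 1 fell and 11 did not pass (26.7% called, beside 51.3% of all genes), with a median change of 0.08. The RAS GTPase-activating gene RASAL2 rose by 0.45, the ubiquitin ligase gene CBLB by 0.20 and the ERK-binding protein gene PEA15 by 0.17, while DUSP6, the ERK phosphatase, fell by 0.37. Averaged over probe sets, RASAL2 stood at 0.10, CBLB at 0.06 and DUSP6 at 0.02, none of them called, and PEA15 was called at 0.30. The call of CBLB ended without replicate 2 (0.19) or 3 (0.17) at 3 h and replicate 1 (0.19) or 3 (0.18) at 0 h. That of PEA15 ended without replicate 2 at 3 h (0.16) and replicate 1 (0.17) or 2 (0.15) at 0 h, and with the replicate number as a block (adjusted p = 0.0588).

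Other transcripts known to respond to ERK rose in 9 and fell in 2 of 17 tested cases (64.7% called, beside 51.3% of all genes tested), with a median change of 0.22. CCND1, which encodes cyclin D1, rose by 1.38, with 11.6 ± 0.12 at 3 h and 10.2 ± 0.05 at 0 h (SD, n = 3 each, adjusted p = 9.43e-06). Its size depends on the probe set: the change of the brightest minus the dimmest tested CCND1 probe set was -0.63 (adjusted p = 0.00143, limma). LIF, a cytokine gene, was 0.95 higher, and EGR1 and MYC, both early response transcription factors, rose by 1.09 and 0.50. Besides DUSP6, the ephrin receptor gene EPHA4, picked out once its value was known, fell by 0.30, but the mean of its probe sets stood at 0.13 without a call.

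Regulators of the PEA3 factors were called in 6 of 9 cases, 5 higher and 1 lower (66.7%, beside 51.3% of all genes tested), with a median change of 0.40. CIC, which encodes Capicua, the repressor of the ETV genes, had 6.47 ± 0.05 at 3 h and 6.07 ± 0.15 at 0 h, a rise of 0.40 (SD, n = 3 each, adjusted p = 0.00311, limma). Its partner gene ATXN1L rose by 0.83. ATXN1, encoding the related ataxin-1, fell by 0.43 to a mean of 4.48 at 3 h, under the floor, against 4.91 at 0 h, and was not called without replicate 2 at 0 h (-0.33). The acetyltransferase genes CREBBP and EP300 rose by 1.42 and 0.63, and the ETS repressor gene ERF by 0.54. CREBBP stood at 0.68 and ERF at 0.30 averaged over their probe sets. COP1 and DET1, of the ubiquitin ligase that degrades PEA3 factors, stood at -0.13 and -0.17 (adjusted p = 0.107 and 0.0586). COP1 was called at -0.38 averaged over its probe sets and at -0.17 with median centring, and DET1 at -0.22 without replicate 3 of either group. ETV3, an ETS repressor, stood at -0.07 (adjusted p = 0.530).

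Of 21 other ETS factors 14 were tested, and 6 rose and 3 fell (64.3% called, beside 51.3% of all genes tested), with a median change of 0.04. ELF4 rose by 0.79 and ELF1 by 0.45, or 0.20 averaged over its probe sets, and ERF, also among the PEA3 regulators, rose by 0.54. ELF2 fell by 0.71 and stood at -0.25 averaged over its probe sets. GABPA fell by 0.42 and ELK4 by 0.23, both singled out once their values were known, and the call of ELK4 ended without replicate 3 at 3 h (-0.16) and replicate 1 (-0.23) or 3 (-0.21) at 0 h. All share the ETS DNA-binding domain with ETV1, ETV4 and ETV5; ERF is a repressor.

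**Figure D4:**
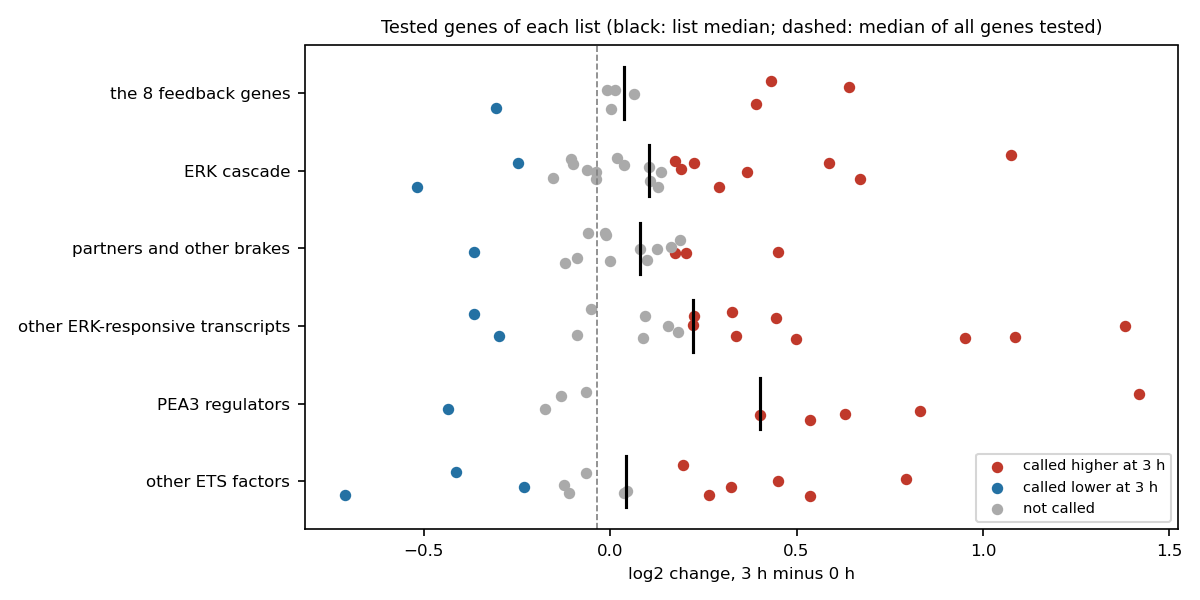
Log2 change (3 h minus 0 h, horizontal axis) of every tested gene in each list by its brightest probe set, red where called higher, blue where called lower and grey where not called; black bars are list medians and the dashed line the median of all genes tested (-0.04). The 8 feedback genes have 3 red, 1 blue and 4 grey points, and the list medians run from 0.04 to 0.40.

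By brightest probe set, SPRED2 was the member with the largest change. Of the 12220 other genes tested, 3 had centred values over the 6 arrays that lay nearest to those of SPRED2. They were TRPV4, a calcium-permeable channel, LRFN3, a cell adhesion protein, and WWP2, a ubiquitin ligase. Their root mean square distances were 0.02, 0.02 and 0.03 on the log2 scale, with changes of 0.61, 0.61 and 0.62. In all, 187 genes lay within 0.1 of SPRED2, and the 6 arrays share the difference between the groups.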

How the data were processed

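Biotin-labelled RNA from a kit that primes at the 3′ end, per the labels, was measured on 6 Affymetrix arrays, 1 for each sample. The authors deposited log2 values for 49372 probe sets, a scale inferred from their range, and their nearly equal distributions mean that a change in total RNA cannot be seen. MAS5 and RMA appear in the submitters' processing notes with no version, role or order; settings and filters are not stated there. The number of arrays limits the precision.

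Groups came from the sample titles. The members and gene lists were chosen with earlier results of these data known. The 79 control probe sets were left out, and probe sets were named by the platform annotation where it gives 1 symbol (44988). A gene was represented by its brightest probe set. Probe sets or genes with a mean under the 40th percentile (log2 4.64), 5911 genes in all, were not tested. The comparison of 3 h with 0 h used lmFit and eBayes (limma 3.58.1, R 4.3.3), with Benjamini-Hochberg adjustment over all features fitted and a threshold of 0.05; "rose", "fell" and "called" refer to this. The step was tested on simulated data. Listed genes named are up to 4 calls per list with the smallest p, all of a list under 10 genes, SPRY3, SPRED3, CIC and NF1, and the 3 nearest genes. Figures were drawn with matplotlib 3.10.9. Alternatives covered normalization, floor, probe set choice, variance moderation, array weights, the replicate block, the threshold and leaving out each array.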

Additional observations from a re-analysis of the deposited data

How the results depend on the processing

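Counts of members called by gene were 3 higher and 1 lower under every alternative run, but the 1 lower was ETV1 (-0.39, against 0.06 from its brightest probe set) and not SPRED1 (-0.04) without probe sets marked as shared. By probe set, lower calls were 5 with no floor, among them SPRED1 11734824_at and ETV1 11733181_at. The floor at the 60th percentile gave 5 higher and 2 lower, and an adjusted p under 0.01 gave 2 lower. Leaving out 1 array gave 6 to 7 higher and 3 lower. Members with a within-gene difference were 1 with a floor at the 60th percentile and 1 at an adjusted p under 0.01, and 1 to 3 with 1 array left out. Other floors choose another dimmest probe set: with no floor SPRED1 turned from -0.49 to 0.72 and SPRED2 from -0.03 to 0.50, both called, and the call of ETV5 ended (-0.38, adjusted p = 0.0705), and with the higher floor SPRED1 turned to 0.21, not called. Averaged over all probe sets, DUSP6 turned to 0.021 and EPHA4 to 0.13, neither called, and ETV1 and SPRY4 were under the floor.

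Among the lists, lower calls of PEA3 regulators numbered 2 with quantile normalization, 3 with median centring, 2 with array weights, 2 without shared probe sets, 0 at the threshold of 0.01 and 0 to 2 with 1 array left out. Lower calls of ERK-responsive transcripts numbered 1 at the 60th percentile and 0 averaged over probe sets, and those of other brakes 0 averaged over probe sets. The cascade had 5 higher calls at 0.01 and 1 lower without shared probe sets, and other brakes had 1 higher at 0.01 and 1 to 3 without 1 array. Deviations of same-numbered arrays correlated at -0.04, -0.02 and -0.19, and 0 of 3 correlated best with its own number. These values gave no sign of pairing by replicate number, but 3 arrays per group cannot settle it. With the replicate block 5838 genes were called, against 6273 without it, and 3 members rose and 1 fell.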
